A study of Mus musculus with 2 samples.

Results

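The genes described here encode the proteins of the mitochondrial ribosome. They were taken by name, as every gene of the spliced count matrix whose mouse symbol starts with Mrpl or Mrps followed by a number, with the pseudogene entries marked -ps left out. That gave 78 of the 54736 gene symbols in the matrix, 49 named Mrpl and 29 named Mrps. By what their products are known to be, 51 encode proteins of the large subunit, 26 encode proteins of the small subunit, and 1, Mrps36, has a ribosomal name but is now known as a subunit of the 2-oxoglutarate dehydrogenase complex. Of these proteins, 46 were classed as having a counterpart in bacterial ribosomes and 31 as specific to mitochondria. The second class includes Mrps18a and Mrps18b, although they are relatives of bacterial protein S18.

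Mitochondria keep a small genome of their own, and a dedicated ribosome inside them translates the few mRNAs it holds, which encode core subunits of the respiratory chain and of ATP synthase. The ribosomal RNAs come from that genome, whereas every protein of the particle is encoded in the nucleus, made in the cytosol and imported. In myeloid leukemia cells the machine is known as a target of antibiotics and as a need of cells that rely on respiration, and dihydroorotate dehydrogenase, the enzyme that brequinar inhibits, sits in the inner mitochondrial membrane and passes its electrons to that same respiratory chain.

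The cells were of 63.3, a line of acute myeloid leukemia from the mouse, grown in RPMI with dialyzed serum, glutamine, 0.5 µM beta-estradiol and stem cell factor supplied by conditioned medium of hamster cells. The study set a block of pyrimidine synthesis against removal of beta-estradiol. Each culture was marked with lipid-anchored DNA barcodes, and pooled, and single cells were sequenced by the 10x Genomics v3 method, which counts 3′ ends of mRNA molecules by unique molecular identifier (UMI). All 10 cultures held the same line and the same stem cell factor. In the first series, cells received 2 µM brequinar for 6, 12, 24 or 48 h with beta-estradiol present. In the second, cells were washed and kept in medium lacking beta-estradiol for the same times. A separate 0 h culture belonged to each series. Whether solvent was added to the brequinar 0 h culture is not stated, and no untreated culture at a later time is listed, so treatment cannot be told apart from time in culture or, for withdrawal, from washing. The line is a single cell line, and the labels do not name the allele behind its use of beta-estradiol. Each condition was 1 culture, so no difference below has a replicate check, no test was run, and every interval is a 95% interval of counting error only.

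The 10 cultures held 528 to 1536 cells and 5236694 to 19931921 spliced UMIs, so that 3 counts in a culture correspond to 0.151 to 0.573 counts per 1000000 counts (CPM). The median depth per cell fell with treatment, from 14849 UMIs at 0 h to 9782 after 48 h of brequinar and from 15229 to 6509 after 48 h of withdrawal. Myeloid identity was visible at 0 h in the brequinar series, with Mpo, the peroxidase of primary granules, at 931 CPM and Spi1, a myeloid transcription factor, at 187 CPM, while 8 erythroid markers summed to 4.47 CPM with 2 of them at 0. Markers of maturing cells moved with both treatments: 14 neutrophil markers summed to 368 CPM at 0 h and 3725 CPM at 48 h of brequinar, and to 438 and 61450 CPM in the withdrawal series, and 6 eosinophil markers rose from 1425 to 11545 CPM and from 1215 to 9114 CPM, 2 of the 6 being at 0 in all cultures. Macrophage markers rose from a low level, from 12.6 to 202 CPM under brequinar and from 14.5 to 363 CPM under withdrawal, with 4 to 6 of 10 genes at 0 in those cultures. Mast cell and basophil markers, 3 of 6 at 0 in these 4 cultures, went from 395 to 3162 CPM under brequinar and from 423 to 274 CPM under withdrawal. Megakaryocyte markers went from 32.1 to 180 CPM under brequinar and from 32.8 to 37.9 CPM under withdrawal, with 0 or 1 of 6 genes at 0. Other markers fell alongside the members: 8 B and T lymphoid markers, 0 to 2 of them at 0, went from 624 to 300.0 CPM under brequinar and from 585 to 90.0 CPM under withdrawal, and 6 dendritic cell markers, 2 or 3 of them at 0, from 92.6 to 35.7 CPM and from 90.4 to 9.76 CPM. What part these changes in cell makeup had in the levels below was not tested, and a fall per culture does not separate fewer cells of a kind from less RNA per cell. Both 0 h cultures agreed closely for the mitochondrial ribosomal genes: none of 68 members differed 1.5-fold between them, where 0% of 5490 measured genes were higher and 0.0546% lower in the brequinar series.

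At 20 CPM or more in at least 1 culture, 69 of the 78 members counted as measured, and 63 reached that level in all 10 cultures. The best counted members by mean CPM were Mrps14, Mrpl20, Mrpl57, Mrpl18 and Mrpl54. Mrps14, a small subunit protein with a bacterial counterpart, stood at 678 and 693 CPM in the 0 h cultures of the brequinar and withdrawal series, and Mrpl20, a large subunit protein whose bacterial counterpart acts early in assembly, at 772 and 793 CPM. These values are molecules as a share of all molecules counted, not scaled by transcript length, since each molecule is read once from its 3′ end.

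The other 9 members lay below 20 CPM in every culture: Mrpl3, Mrpl17, Mrpl23, Mrpl40, Mrpl53, Mrps6, Mrps18a, Mrps18b and Mrps34. Mrpl53 had no count in any culture, and Mrpl23 was the best counted of the group at 5.25 to 16.1 CPM. In the annotation used for positions (GENCODE M21, mouse GRCm38), exons of a second gene on the same strand overlap the last 400 exonic bases of 2 of these 9 (Mrpl53 and Mrps34) and of 1 of the 69 measured members (Mrpl51, by a microRNA gene). How reads in such overlaps were counted is not given in the sources used here, and whether the low counts of these 9 members reflect their mRNA level or the reference used for counting was not tested. The 3 relatives of bacterial protein S18 show how unevenly paralogs were counted: Mrps18c stood at 352 CPM at 0 h of the brequinar series, Mrps18a at 4.67 CPM and Mrps18b at 0.903 CPM, and Mrps18c stayed between 293 and 411 CPM in all 10 cultures. Pseudogene entries of the family held 0 or 1 UMI per culture, so they took few counts of their own.

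As a whole, mRNA for the mitochondrial ribosome was lower after both treatments, most of all at the last time of withdrawal. The 78 members summed to 15927 CPM at 0 h of the brequinar series, then 13833, 15217, 12451 and 11842 CPM at 6, 12, 24 and 48 h. In the withdrawal series they summed to 16141 CPM at 0 h, then 13537, 12738, 13402 and 8403 CPM. Relative to the own 0 h culture the sum at 48 h was 0.743 under brequinar and 0.521 under withdrawal. In CPM the brequinar series thus dipped at 6 h, nearly returned at 12 h at 0.955 of its start and fell by 24 h. The withdrawal series stayed between 0.789 and 0.839 from 6 to 24 h and fell in its last interval. Scaling by median-of-ratios size factors, which centres the cultures on the typical gene rather than on the total, gave 0.703 and 0.661 at 48 h, so the wider gap between treatments at that time rests on the scaling. As molecules per cell with no scaling, the sum went from 211 to 117 UMIs per cell under brequinar and from 222 to 59.9 under withdrawal, and the depth of cells fell at the same times.

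**Figure D1:**
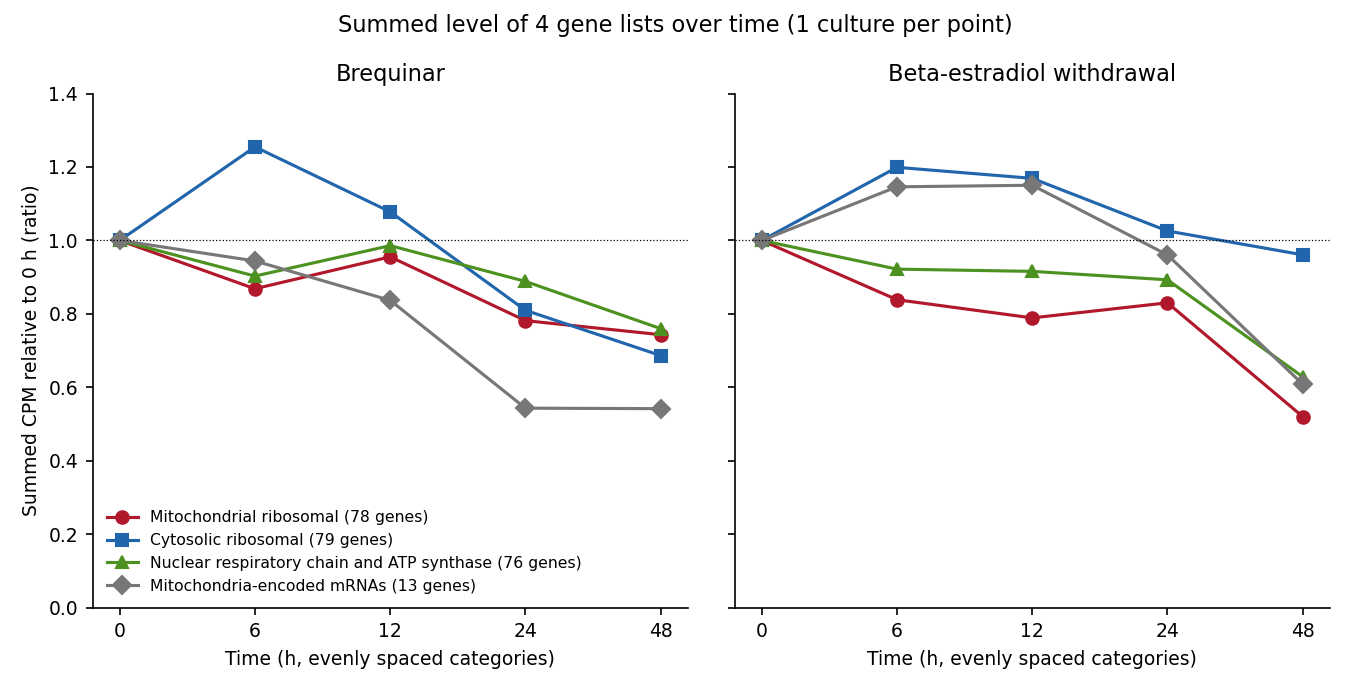
Summed CPM of 4 gene lists relative to the 0 h culture of the same series, against time in hours, with brequinar on the left and beta-estradiol withdrawal on the right and 1 culture per point. The mitochondrial ribosomal genes ended at 0.743 under brequinar and 0.521 under withdrawal, while the cytosolic ribosomal genes ended at 0.687 and 0.961.

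Under brequinar a small dip at 6 h had largely passed at 12 h on the scale of total counts. A larger fall followed by 24 h. At 6 h, 9 of 68 measured members were at least 1.5-fold lower and 1 higher, where 4.97% of all measured genes were lower and 8.82% higher. At 12 h, 3 of 69 were lower and 1 higher (4.67% and 13.5% of all genes), a share of lower members no larger than that of genes in general. At 24 h, 24 of 69 were lower and 2 higher (13.8% and 29.2%), and at 48 h, 31 of 68 were lower and none higher (17.3% and 25.7%). The higher member at 12 h was Mrpl10, near the 20 CPM minimum at 12.2, 20.2 and 22.6 CPM at 0, 12 and 24 h. At 24 h the 2 higher were Mrpl10 and Mrpl14. The members' median log2 ratio, with 5 CPM added to each value, was -0.15, -0.05, -0.42 and -0.51 at the 4 times, beside 0.05, 0.10, 0.16 and 0.04 over all measured genes. With size factors the members' median at 12 h was lower than this, beside -0.03 over all genes. How far the members returned at 12 h thus rests on the scaling. On the scale of total counts more genes were thus higher than lower at 24 and 48 h, whereas the mitochondrial ribosomal genes were mostly lower, and 63 of 68 lay below their own 0 h level at 48 h. With size factors all genes split more evenly, with 1272 higher and 1303 lower at 24 h and 1409 and 1282 at 48 h, while 38 of 69 and 36 of 68 members were lower and 1 and none higher. Between 12 and 24 h alone, 16 of 69 members were lower and none higher (11.9% and 17.2% of genes), with a median of -0.36.

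Under withdrawal the fall came in 2 stages, a modest one by 6 to 12 h and a large one after 24 h. At 6 h, 9 of 68 members were at least 1.5-fold lower, at 12 h 14 of 68 and at 24 h 8 of 68, and none was higher at any of these times. All measured genes were lower in 8.11%, 11.2% and 11.9% and higher in 12.3%, 13.4% and 9.46%, so at 24 h the share of lower members matched that of genes in general. At 48 h, 54 of 68 members were lower and none higher, against 40.7% lower and 21.5% higher among all genes. The median log2 ratio of members was -0.23, -0.38, -0.29 and -1.04, beside 0.06, 0.01, -0.14 and -0.33 over all genes. With size factors the 48 h medians became -0.72 for members and 0.03 for all genes, with 42 of 68 members lower and 1 higher. The members therefore stood below the typical gene under either scaling. From 24 to 48 h, 48 of 67 were lower and none higher (28.5% and 16.7% of genes), whereas from 12 to 24 h a single one of 67 was lower, Mrpl52, and none higher (11.7% and 5.56%). Of the 68 members, 65 had their lowest level of the series at 48 h. Under brequinar the lowest level fell at 48 h in 30, at 24 h in 24 and at 6 h in 11 of 69. The time of the lowest level was not counted over all genes.

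**Figure D2:**
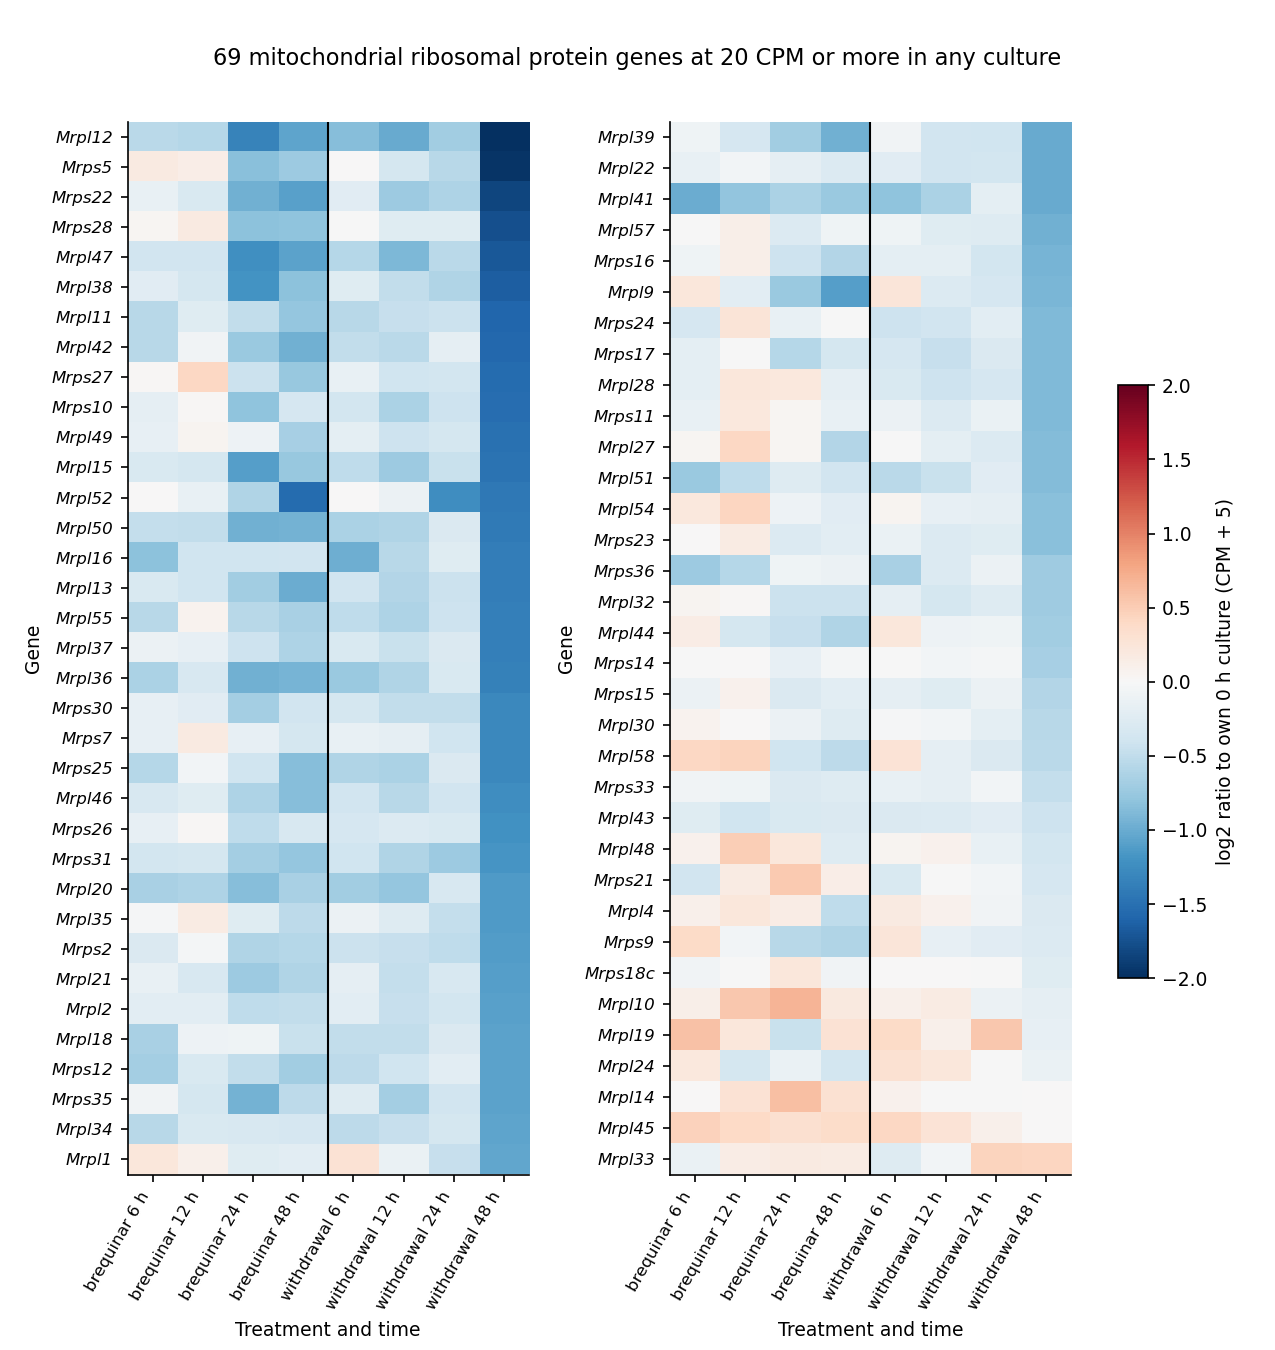
Colour gives the log2 ratio of each of the 69 measured members (rows, ordered by the ratio at 48 h of withdrawal) to the 0 h culture of the same series after adding 5 CPM, for each treatment and time (columns). The column of 48 h of withdrawal is blue in nearly all rows, with Mrpl33, Mrpl45 and Mrpl14 at the light end, and the 6 h columns of both treatments look alike.

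At 6 h few measured genes of any kind differed between the treatments, and the members were likewise close in which changed and by how much. None of 68 members differed 1.5-fold between brequinar and withdrawal at 6 h (1.9% of all genes were higher under brequinar and 1.45% lower), and their log2 ratios to separate 0 h cultures correlated across members at r = 0.94 (n = 68 genes of the same cultures, given as a description). Each treatment had 9 members at least 1.5-fold lower at 6 h (4.97% of all genes under brequinar and 8.11% under withdrawal). Of these members 6 were shared: Mrpl41, Mrpl16, Mrps36, Mrpl20, Mrpl36 and Mrps25. Neither the correlation nor the overlap was computed over all genes. Mrpl51, Mrps12 and Mrpl18 passed that fold under brequinar and stood 1.42- to 1.47-fold lower under withdrawal. Mrpl12, Mrpl50 and Mrpl47 passed it under withdrawal, at 1.82-, 1.59- and 1.56-fold lower, and stood 1.47-, 1.41- and 1.34-fold lower under brequinar. Mrpl16, a large subunit protein with a bacterial counterpart, went from 178 to 98.7 CPM under brequinar (1.80-fold lower, 1.69 to 1.92) and from 181 to 89.5 CPM under withdrawal (2.02-fold, 1.88 to 2.16). Mrpl41, a mitochondria-specific large subunit protein, went from 138 to 66.8 CPM (2.07-fold lower, 1.92 to 2.23) and from 137 to 76.5 CPM (1.79-fold, 1.66 to 1.94). Under withdrawal both then rose again toward 0 h before the late fall, Mrpl16 to 153 CPM and Mrpl41 to 120 CPM at 24 h. At 24 h of brequinar Mrpl16 stood at 134 CPM and Mrpl41 at 87.4 CPM, still well below its 0 h level.

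Others of the early group also dipped at 6 h. Mrpl51, also specific to mitochondria, stood at 297 CPM at 0 h and 176 CPM at 6 h of brequinar (1.69-fold lower, 1.61 to 1.78), and at 304 and 207 CPM in the withdrawal series. Mrps12, the small subunit protein of the decoding region, stood at 269, 166, 216, 190 and 164 CPM along the brequinar series and at 269, 185, 203, 232 and 125 CPM along withdrawal. Mrps36, the one member that is not part of the ribosome, dipped with them, from 127 to 75.1 CPM at 6 h of brequinar and from 128 to 79.3 CPM at 6 h of withdrawal, and was back at 119 and 117 CPM at 24 h. The early dip was thus not limited to proteins of the particle.

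A few members stood higher at 6 h, again under both treatments, though of these a single one, Mrpl19 under brequinar, reached 1.5-fold. Mrpl19, a large subunit protein with a bacterial counterpart, went from 102 to 155 CPM under brequinar (1.52-fold higher, 1.43 to 1.62) and from 103 to 136 CPM under withdrawal (1.32-fold, 1.23 to 1.41). Mrpl45, which lines the exit of the peptide tunnel and anchors the ribosome to the inner membrane, went from 63.9 to 90.2 CPM (1.41-fold, 1.30 to 1.53) and from 64.6 to 87.4 CPM (1.35-fold, 1.24 to 1.47). Mrpl58, a peptidyl-tRNA hydrolase that became part of the large subunit and helps to free stalled ribosomes, went from 180 to 242 CPM under brequinar (1.34-fold, 1.28 to 1.41) and from 185 to 225 CPM under withdrawal (1.22-fold, 1.16 to 1.28), and Mrpl24 from 57.0 to 71.4 CPM under withdrawal (interval of the ratio 1.14 to 1.37). All 4 also lay above 0 h under both treatments at 6 h when size factors were used. Mrpl58 then fell to 124 CPM at 48 h of brequinar and 126 CPM at 48 h of withdrawal, so it ended below 0 h in both series.

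The deepest falls at 48 h of withdrawal were in Mrpl12, Mrps5, Mrps22, Mrps28 and Mrpl47, ordered by log2 ratio. Mrpl12, the protein of the stalk that contacts translation factors, which has also been described as a partner of the mitochondrial RNA polymerase, stood at 327 CPM at 0 h, 180 at 6 h, 161 at 12 h, 201 at 24 h and 72.6 at 48 h, 4.51-fold lower at the end (4.12 to 4.95). Under brequinar it stood at 322, 219, 215, 125 and 152 CPM, 2.12-fold lower at 48 h (1.97 to 2.29), with its lowest point at 24 h. It was lower than 0 h in all 8 treated cultures. Mrps5, a small subunit protein with a bacterial counterpart, kept its level at 6 h of withdrawal (88.0 CPM at both times) and ended at 18.9 CPM, 4.65-fold lower (3.88 to 5.60). Along brequinar it stood at 86.6, 98.4, 95.9, 46.4 and 50.6 CPM, so that its whole fall lay between 12 and 24 h.

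Mrps22, a mitochondria-specific small subunit protein, ended withdrawal at 22.4 CPM against 93.5 at 0 h (4.17-fold lower, 3.53 to 4.94) and brequinar at 40.1 against 91.2 CPM (2.27-fold, 1.97 to 2.64). Mrps28, of the small subunit, ended withdrawal at 102 against 355 CPM (3.49-fold lower, 3.22 to 3.77), and stood at 341, 353, 389, 191 and 194 CPM along brequinar. Mrpl47, the counterpart of bacterial L29 near the tunnel exit, ended withdrawal at 15.4 against 60.9 CPM (3.94-fold lower, 3.23 to 4.86) and brequinar at 25.4 against 58.5 CPM (2.30-fold, 1.92 to 2.78). These 5 genes belong to both subunits, and 3 of them, Mrpl12, Mrps22 and Mrpl47, were also among the 5 lowest at 48 h of brequinar.

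The lowest member at 48 h of brequinar was Mrpl52, a mitochondria-specific large subunit protein, which followed a course of its own. It stood at 321, 322, 289, 211 and 107 CPM along brequinar, 2.99-fold lower at 48 h (2.75 to 3.27). Along withdrawal it stood at 318, 320, 292, 132 and 115 CPM, so that most of its fall came between 12 and 24 h and little came after. In that interval 24 of 67 members were lower, but no other by 1.5-fold, with Mrpl1 at 155 and 122 CPM and Mrpl35 at 196 and 168 CPM. At 24 h of withdrawal it was the lowest member, at 2.41-fold lower than 0 h (2.29 to 2.54). Mrpl9, with a bacterial counterpart, was next under brequinar, at 45.4 against 103 CPM at 48 h (2.27-fold lower, 1.98 to 2.61), after 122 CPM at 6 h.

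At the other end, 4 large subunit members were not below their 0 h level at 48 h under at least 1 treatment. Mrpl33, the counterpart of bacterial L33, was the one member clearly above 0 h at 48 h of withdrawal, at 144, 119, 139, 198 and 196 CPM along the series, 1.37-fold higher at the end (1.28 to 1.46). It also ended brequinar 1.13-fold above 0 h (1.04 to 1.22), at 153 against 136 CPM. Mrpl14, at the face between the subunits and bound by an assembly factor while the large subunit is built, stood at 238, 240, 294, 364 and 296 CPM along brequinar, 1.53-fold higher at 24 h (1.47 to 1.59) and 1.24-fold at 48 h (1.17 to 1.32), but at 233 to 249 CPM in all 5 cultures of the withdrawal series. With size factors its excess at 24 h of brequinar was 1.35-fold.

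Mrpl45 ended brequinar at 83.6 against 63.9 CPM (1.31-fold higher, 1.17 to 1.46) and withdrawal at 65.1 against 64.6 CPM (1.01-fold, 0.903 to 1.13). Mrpl19 ended brequinar at 126 against 102 CPM (1.23-fold higher, 1.13 to 1.35) and withdrawal at 91.8 against 103 CPM (0.889-fold, 0.811 to 0.973), a direction that turned to 1.13-fold with size factors. Mrpl24 stood at 51.7 against 57.0 CPM at 48 h of withdrawal (0.907-fold, 0.802 to 1.02), and turned to 1.15-fold in the same way. Mrps21, the small subunit member highest at 48 h of brequinar, stood at 311 against 282 CPM (1.10-fold, 1.04 to 1.16), after 408 CPM at 24 h. Across the 10 cultures these were among the members least tied to the rest, which follows in part from their choice by 48 h levels. The correlation of a member's log2 level with that of the sum of all others was -0.56 for Mrpl33, -0.06 for Mrpl14 and 0.07 for Mrpl45. It was 0.19 for Mrps21, 0.20 for Mrpl24, 0.21 for Mrpl10 and 0.25 for Mrpl19, against 0.98 for Mrpl37 and Mrpl2 (10 cultures, a description).

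**Figure D3:**
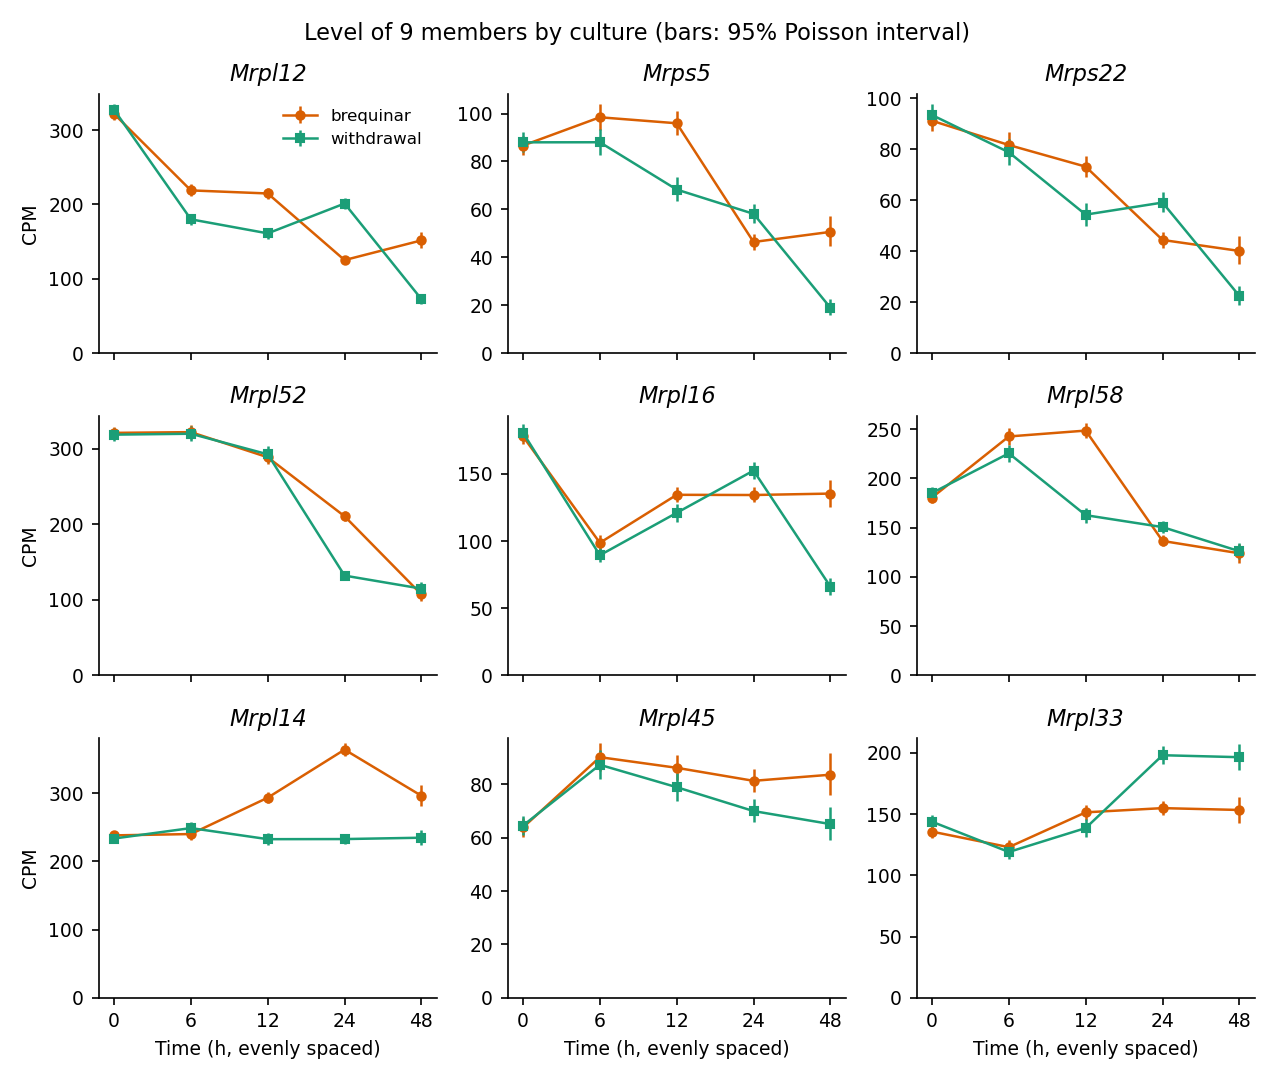
CPM of 9 members against time in hours, with orange circles for brequinar, green squares for withdrawal, 1 culture per point and bars giving the 95% Poisson interval of the count. Mrpl12, Mrps5 and Mrps22 end lowest under withdrawal, Mrpl52 falls by 24 h of withdrawal, Mrpl16 dips at 6 h, and Mrpl33 ends above its start.

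The 2 treatments were close at 6 h and parted later, as they did over all measured genes. At 12 h, 8 of 69 members were at least 1.5-fold higher under brequinar than under withdrawal and none lower (13.2% and 7.33% of all genes). Neither share of members was larger than that of genes in general. At 24 h, 3 of 68 were higher and 9 lower (29.6% and 8.05%). At 48 h, 30 of 66 were higher and none lower (37.6% and 8.57%), with a median log2 ratio of 0.50 for members and 0.34 for all genes. The share of higher members at 48 h lies near that of genes in general, and with size factors 4 members were higher and 4 lower, with a median of 0.09. Mrps5 at 50.6 against 18.9 CPM (2.67-fold higher), Mrps10, a small subunit protein with a bacterial counterpart, at 97.8 against 41.2 CPM (2.37-fold) and Mrpl12 at 152 against 72.6 CPM (2.09-fold) were the most different. Mrps9 at 61.1 against 79.0 CPM (0.774-fold), Mrpl33 at 153 against 196 CPM (0.781-fold) and Mrpl4 at 40.5 against 48.2 CPM (0.839-fold) lay lower under brequinar. Across members, the log2 ratios of the 2 treatments to their own 0 h cultures correlated at r = 0.62, 0.54 and 0.73 at 12, 24 and 48 h, and 62 of 68 members were lower under withdrawal at 48 h but 23 of 69 at 24 h. So the members were lower under brequinar at 24 h for the most part and lower under withdrawal at 48 h, on the scale of total counts. These counts of members were not made over all genes. The median log2 ratio of all genes between brequinar and withdrawal was 0.23 at 24 h and 0.34 at 48 h.

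**Figure D4:**
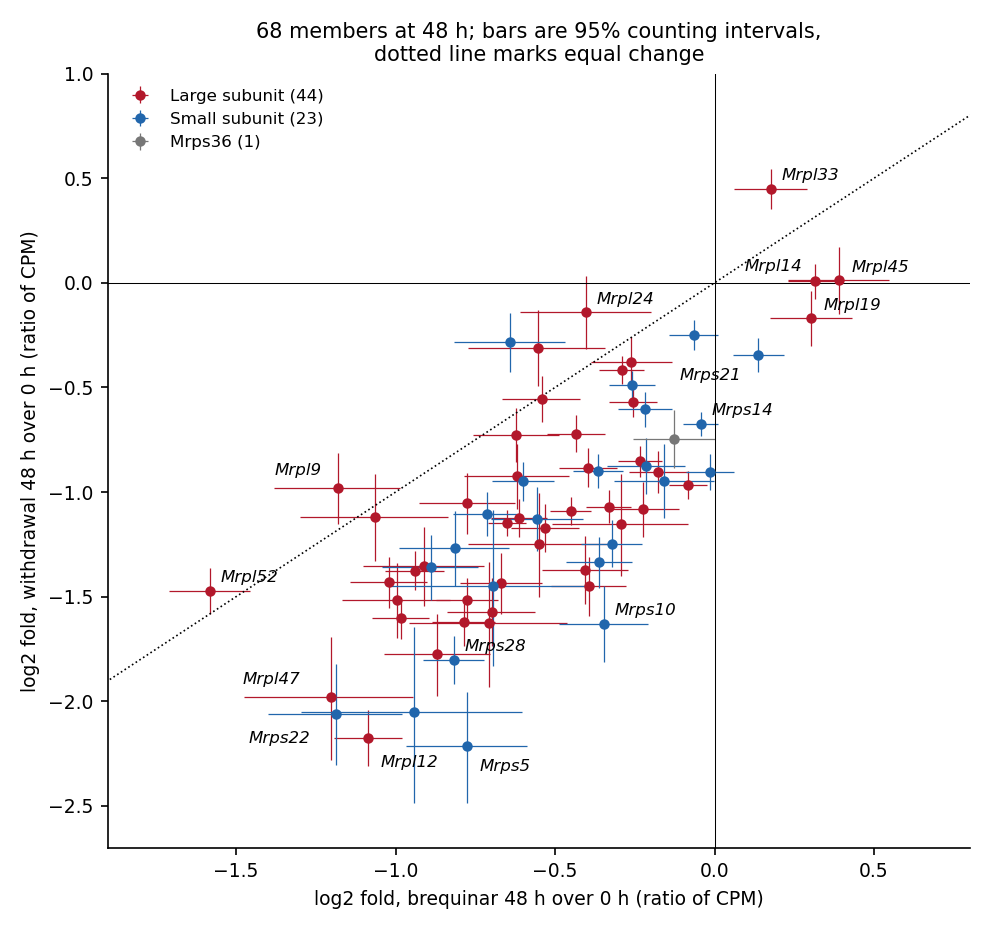
Each point is 1 of 68 members, placed by its log2 fold of CPM at 48 h over 0 h under brequinar (x axis) and withdrawal (y axis), with 95% counting intervals as bars and red for the large and blue for the small subunit. Most points lie below the dotted line of equal change, 62 of 68 being lower under withdrawal, and Mrpl33 stands above it.

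Proteins of both subunits and of both evolutionary origins took part. At 48 h of withdrawal, 34 of 44 large subunit members and 19 of 23 small subunit members were at least 1.5-fold lower, with medians of -1.04 and -1.07. At 48 h of brequinar the counts were 21 of 44 and 10 of 23, with medians of -0.52 and -0.36. Members with bacterial counterparts were lower in 32 of 41 and the mitochondria-specific ones in 21 of 26 at 48 h of withdrawal (medians -1.04 and -1.12), while brequinar at 48 h gave 17 of 41 and 14 of 26 (-0.45 and -0.61). Among all measured genes, 40.7% were lower at 48 h of withdrawal and 17.3% at 48 h of brequinar. Of the 44 large subunit members 6 were lower at 6 h of brequinar, and 2 of 23 of the small subunit (4.97% of all genes), and 7 and 1 at 6 h of withdrawal (8.11%). No difference between these classes was tested. Of 5 ribosomal proteins known under other names (Dap3, Chchd1, Aurkaip1, Ptcd3 and Gadd45gip1), 4 were lower at 48 h of withdrawal and none at 48 h of brequinar. Gadd45gip1 went from 41.6 to 11.4 CPM under withdrawal (3.66-fold lower, 2.90 to 4.68) and from 40.8 to 32.3 CPM under brequinar.

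Lists for the rest of mitochondrial protein synthesis were also lower at 48 h, when 40.7% of all measured genes were lower under withdrawal and 17.3% under brequinar. Of 8 measured translation factors of mitochondria, 8 were lower under withdrawal and 4 of 8 under brequinar, and Tufm, the elongation factor that brings tRNA to the ribosome, stood at 27.5 against 89.8 CPM (3.26-fold lower, 2.80 to 3.81) and at 49.6 against 94.1 CPM (1.90-fold, 1.66 to 2.17). Of 18 assembly factors of the mitochondrial ribosome, 14 and 9 were lower, with C1qbp at 185 against 879 CPM under withdrawal (4.75-fold lower, 4.48 to 5.03). Of the mitochondrial tRNA synthetases, which load tRNAs with amino acids, 6 of 7 and 2 of 8 were lower, the latter a share near that of genes in general, and of genes for mitochondrial RNA and DNA upkeep, 12 of 13 and 6 of 13. Import genes, which bring the ribosomal proteins into the organelle, were lower in 23 of 25 and 15 of 25, with the chaperone Hspd1 at 184 against 1222 CPM under withdrawal (6.64-fold lower, 6.28 to 7.04). Every one of these lists thus held more lower members under withdrawal than under brequinar at 48 h, as all measured genes did.

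The cytosolic ribosome followed a different course. Its 71 measured protein genes had a median log2 ratio of 0.32 at 6 h of brequinar, when the mitochondrial ones stood at -0.15, and of -0.62 with 40 lower at 48 h (17.3% of all genes). Under withdrawal their medians were 0.25, 0.22, 0.02 and -0.10 at 6, 12, 24 and 48 h, with 6 of 69 lower at 48 h (40.7% of all genes), and the last turned to 0.23 with size factors. The 2 ribosomes were therefore apart under withdrawal, where the mitochondrial genes stood at -1.04 at 48 h, and close under brequinar at 24 and 48 h. Nuclear genes of the respiratory chain and ATP synthase lay between the 2 ribosomes at 48 h of withdrawal, with 49 of 76 lower (median -0.67), and changed less than either at 48 h of brequinar, with 24 of 76 lower (-0.42). The mRNAs made in mitochondria, which the mitochondrial ribosome translates, were lower in 4 of 11 under withdrawal and 6 of 11 under brequinar (medians -0.35 and -0.55). Under withdrawal these values lie near those of all genes (40.7% lower, median -0.33). Under brequinar all genes stood at 17.3% lower with a median of 0.04. Genes of nucleolar ribosome biogenesis fell further than any of these under withdrawal, with 42 of 42 lower (median -1.88), and in 23 of 42 under brequinar (-0.64).

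In single cells the fall ran through most of the population at 48 h of withdrawal. Each cell with at least 2500 UMIs was thinned to 2500, which kept 10949 cells and left out 13 to 249 per culture. The median cell then held 39, 34, 37, 30 and 28 member UMIs along brequinar and 40, 33.5, 32, 33 and 19 along withdrawal. Without thinning the medians went from 238 to 112 UMIs under brequinar and from 245 to 45 under withdrawal. At 48 h of withdrawal, 67.0% of cells lay below 23 UMIs, the 5th percentile of the 0 h culture, against 15.5% of cells below 21, its counterpart, at 48 h of brequinar. Cells also differed more from each other there: the variance was 3.15 times the mean, the highest of the 10 cultures, which otherwise lay between 1.56 and 2.44.

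**Figure D5:**
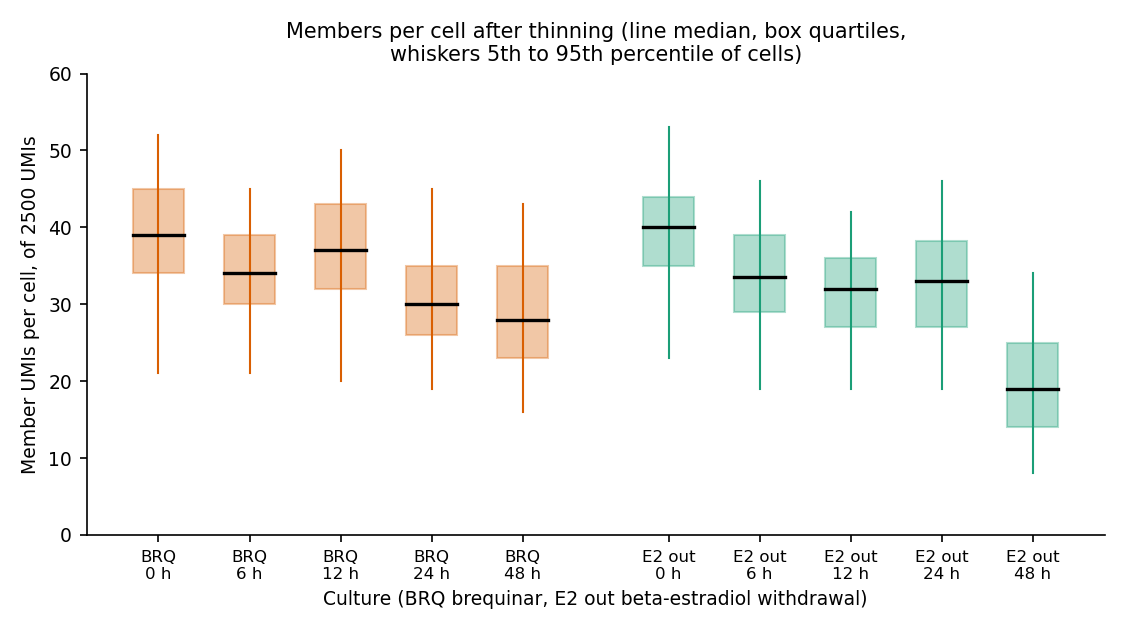
UMIs of the 78 members per cell after thinning each cell to 2500 UMIs, for each culture, with the median as a black line, the quartiles as a box and the 5th to 95th percentile of cells as whiskers. At 48 h of withdrawal the median cell held 19 member UMIs and the 95th percentile stood at 34, below the 0 h median of 40.

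The level also differed with cell cycle class, and the classes shifted with treatment. The classes are ranges of scores on S and G2/M gene lists, not cell types. At 48 h of withdrawal the class low for both scores, called G1-like, held 55.7% of cells and 6657 CPM of member counts (6564 to 6750), against 9909 CPM in the S class and 9762 CPM in the G2/M class. At 0 h of that series the G1-like class held 0.682% of cells, and the S and G2/M classes stood at 16322 and 16271 CPM. Thus the level was lower within the S and G2/M classes as well, and when each culture was weighted to the class shares of its 0 h culture the median log2 ratio at 48 h of withdrawal was -0.87. At 48 h of brequinar the G1-like class held 16.3% of cells and 8573 CPM, the S class 12023 CPM and the G2/M class, with 75.3% of cells, 12319 CPM.

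Among 4324 other genes at 50 CPM or more in some culture, those whose log2 level followed that of the summed members most closely over the 10 cultures included Exosc8, Snrpd2, Ppp5c, Ndufa12, Exosc3, Tufm, Fubp1, Dhx36 and Psmd11, with Pearson r from 0.985 to 0.992. They encode 2 subunits of the RNA exosome, a spliceosomal core protein, a respiratory complex I subunit and the mitochondrial elongation factor among others. Ndufa12 went from 182 to 45.9 CPM at 48 h of withdrawal (3.97-fold lower, 3.53 to 4.47), a deeper fall than that of the sum. The 10 points behind each value share libraries and a common scale, and the correlations are a description.

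The sequences before the start sites of some of the lowest and highest members are shown as a description, since their promoters have known motifs. Whether promoter sequence had a part in the changes was not tested. RefSeq gave promoter windows, from 250 bases before to 50 after the start, for 69 of the 78 members (build GRCm38.p6). Shown are 150 bases ahead of the start, on the gene's strand, for Mrpl12 and Mrps22, which were among the 5 lowest members at 48 h of both treatments, for Mrpl52, the lowest at 48 h of brequinar, and for Mrpl45 and Mrpl33, which did not fall at 48 h. They lie at chr11:120484463-120484612 (plus strand, Mrpl12), chr9:98601680-98601829 (minus, Mrps22), chr14:54426759-54426908 (plus, Mrpl52), chr11:97315566-97315715 (plus, Mrpl45) and chr5:31613789-31613938 (plus, Mrpl33), outside annotated exons. The Mrpl12 and Mrpl33 stretches end 24 and 12 bases ahead of the RefSeq start. That of Mrpl33 lies inside the GENCODE gene, which spans chr5:31596935-31664384, and so precedes a RefSeq start within the gene. Capitals mark matches on either strand to 6 motifs. The first is GCGCA, then any base, then GCGC (nuclear respiratory factor 1, NRF1). The others are CCGGAAG (ETS factors), AAGATGGC (YY1), CACGTG (E-box), CCAAT and GGGCGG (SP1).
Mrpl12: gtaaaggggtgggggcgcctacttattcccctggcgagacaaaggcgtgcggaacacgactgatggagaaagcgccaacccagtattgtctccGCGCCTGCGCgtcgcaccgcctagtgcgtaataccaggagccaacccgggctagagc
Mrps22: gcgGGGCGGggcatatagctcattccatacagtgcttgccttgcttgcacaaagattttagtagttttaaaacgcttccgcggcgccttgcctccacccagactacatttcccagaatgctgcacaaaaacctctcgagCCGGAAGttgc
Mrpl52: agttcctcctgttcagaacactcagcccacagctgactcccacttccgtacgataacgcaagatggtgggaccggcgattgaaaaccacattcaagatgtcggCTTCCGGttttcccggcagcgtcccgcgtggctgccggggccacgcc
Mrpl45: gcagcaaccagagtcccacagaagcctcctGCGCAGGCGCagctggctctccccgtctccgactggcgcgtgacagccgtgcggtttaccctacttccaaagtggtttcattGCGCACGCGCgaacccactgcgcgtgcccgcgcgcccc
Mrpl33: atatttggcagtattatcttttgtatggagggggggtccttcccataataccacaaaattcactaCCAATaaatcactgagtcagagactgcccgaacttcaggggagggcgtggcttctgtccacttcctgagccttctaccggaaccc
Mrpl45 holds a pair of NRF1 matches and Mrpl12 a single one, and Mrps22 and Mrpl52 each hold an ETS match.

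Over the full windows, NRF1 letters were found in 13 of 69 members (18.8%), against 13.6% of measured genes and 5.19% of all genes with a window. ETS letters were in 26 (37.7%, against 24.0% and 9.93%) and YY1 letters in 12 (17.4%, against 6.32% and 3.19%). E-box letters were in 5 (7.25%, against 12.9% and 8.09%), CCAAT in 27 (39.1%, against 43.0% and 41.1%) and SP1 letters in 34 (49.3%, against 70.3% and 38.2%). So the first 3 motifs were more frequent among members than among measured genes and the last 3 less so, with no test of either. No motif contains another, though matches may overlap. When the 68 measured members were ranked by their change at 48 h of withdrawal, NRF1 letters were in 1 of 18 windows among the 22 lowest and in 7 of 19 among the 22 highest, ETS letters in 3 and 9, and YY1 letters in 6 and 1. This ranking uses the readout itself and is a description, and a match shows only that the letters are present in the window.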

How the data were processed

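The authors deposited raw UMI counts per cell barcode and gene in a spliced and an unspliced matrix, both runs in 1 matrix, with a table of the barcode of each culture and their own calls of barcodes, per the file headers. Tools listed in the submitters' processing notes, without roles, are bustools 0.39.4, kallisto 0.46 and Cell Ranger. The build and gene models the authors used were not given in the sources used here. Of 15582 called barcodes, 2777 were the authors' doublets and 265 negative. The remaining 12540 cells, with 134068354 UMIs, entered with no further filter or doublet caller. The unspliced matrix was not used here.

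Spliced counts were summed per culture and scaled to CPM. A member counted as measured at 20 CPM or more in either culture compared, and as higher or lower at a ratio of CPM of 1.5 or more. Ratios carry Clopper-Pearson intervals (conditional binomial, 95%), sums Poisson intervals, both of counting error only. Log2 medians used CPM plus 5. With 1 culture per condition no test was possible, and medians and counts stand beside those of all genes. Cells were thinned to 2500 UMIs and scored for phase with scanpy 1.11.5. Ratios and intervals were checked on Poisson counts simulated from the 0 h profiles. Such counts carry the error that the intervals assume, so the check does not cover variation between cells or cultures. Python 3.11.15, numpy 2.4.6 and scipy 1.17.1 were used. Genes carried Ensembl IDs: 54723 of 54838 matched a symbol, and 53861 matched GENCODE M21 with their version. Promoter sequences are RefSeq's (GRCm38.p6).

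The members, related lists and alternatives were chosen with earlier results of these data known. Named genes are, among measured members, the 5 highest and 5 lowest log2 ratios at 48 h of each treatment, the 3 highest and 3 lowest at 6 h and between treatments at 48 h, the 5 with the highest mean CPM, and Mrpl12, Mrpl45, Mrpl58, Mrps12, Mrps36 and the Mrps18 paralogs. Lists name up to 2 members with the largest ratios. Mrpl37, Mrpl2, Mrpl1, Mrpl10, Mrpl35, Mrps27 and the 6 h calls listed in full, along with Mpo and Spi1, were named after their values were seen. Of the 10 genes most like the summed members, 1 is not reported here.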

Additional observations from a re-analysis of the deposited data

Results flagged for a closer look

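Of 68 members measured in both series, 7, 28, 9 and 2 lay on opposite sides of their own 0 h level under the 2 treatments at 6, 12, 24 and 48 h. No such count was made over all genes, so whether members differ from genes in general here is not known. A pair of members lay on opposite sides by a log2 ratio of 0.32 or more in both directions. Mrpl19 at 24 h was at 0.721 of its 0 h level under brequinar and at 1.48 under withdrawal, with size factors at 0.638 and 1.56. Mrps27, a small subunit protein, stood at 1.4 of its 0 h level at 12 h of brequinar and at 0.723 at 12 h of withdrawal, with size factors at 1.27 and 0.704. Each value rests on 1 culture, and the difference was not tested.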

How the results depend on the processing

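Each condition was 1 culture, so no replicate could be left out, and counting error is widest for the members below 20 CPM. No paired analysis was possible because each condition had 1 culture and the cells carry no mark of the run. Medians over members were judged against the half-width of a typical single member's counting interval, which is not the counting error of a median. Each median larger in size than that half-width kept its sign under every alternative run, while medians of all genes did not. The pseudocount of 1 CPM and the limit to cells under 10% mitochondria-encoded UMIs moved no median of members by more than that half-width. They moved no count of higher or lower members by more than 1.5-fold. Size factors shifted the median of all genes by over 0.1 (log2) in some comparisons, for instance from -0.33 to 0.03 at 48 h of withdrawal and from 0.34 to -0.08 between treatments at 48 h, and the share of higher among all calls from 34.6% to 54.4% and from 81.5% to 41.9%. That share moved from 63.9% to 48.7%, 74.4% to 49.1% and 67.9% to 49.4% at 6, 12 and 24 h of brequinar, from 60.3% to 46.1% and 44.4% to 56.1% at 6 and 24 h of withdrawal, and from 64.3% to 48.4% and 78.6% to 50.3% between treatments at 12 and 24 h. With size factors, members higher and lower numbered 0 and 14, 0 and 6, and 1 and 38 at 6, 12 and 24 h of brequinar, 16 lower at 6 h, 1 and 3 at 24 h and 1 higher at 48 h of withdrawal, and 2 and 1, 1 and 21, and 4 and 4 between treatments at 12, 24 and 48 h. Medians were then -0.18 and -0.58 at 12 and 24 h of brequinar, -0.22 and -0.72 at 24 and 48 h of withdrawal, and 0.19, -0.38 and 0.089 between treatments. At a log2 ratio of 0.32 or more either way, in place of 1.5-fold, the counts were 4 and 21, 7 and 18, 4 and 40, and 1 and 47 along brequinar, 3 and 27, 37 lower, 2 and 31, and 1 higher along withdrawal, and 33 and 1, 6 and 21, and 48 and 2 between treatments. At 2-fold they were 0 and 1, 0 and 0, 0 and 7, and 7 lower along brequinar, 1, 2 and 1 lower at 6, 12 and 24 h of withdrawal, and 0 higher, 0 and 1, and 4 higher between treatments. With no minimum, 3, 2 and 5 were higher (brequinar 6 and 12 h, between treatments at 24 h) and 1 lower between treatments at 0, 6 and 48 h, and at 50 CPM 0 and 1 were higher at 12 and 24 h of brequinar. Mean CPM per cell gave 0 higher at 12 h and a median of -0.32 at 24 h of brequinar, and 5 higher between treatments at 12 h. Leaving mitochondria-encoded and cytosolic ribosomal genes out of the sum gave 1 higher at 24 h of brequinar and 5 and 1 between treatments at 12 h, and removing 5% as free RNA 1 higher at 24 h of withdrawal and 1 lower between treatments at 12 h. Weighting by phase gave 8 lower at 12 h of withdrawal, a median of -0.87 at 48 h, and 4 and 17 higher between treatments at 12 and 48 h. Per cell with no scaling, the sum relative to 0 h was 0.686, 0.748, 0.648 and 0.556 along brequinar and 0.588, 0.506, 0.631 and 0.269 along withdrawal. The cause of these shifts was not tested.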
